A study of Mus musculus with 6 samples.

Results

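The comparison described here sets bone marrow-derived macrophages (BMMs) given RANKL together with LEA against BMMs given neither. It runs over every gene of the deposited table that reached 0.5 FPKM in at least 2 of the 6 libraries, which left 11905 of 24940 genes, measured in 4 of the 6 RNA-seq libraries. FPKM counts fragments per kilobase of exon, scaled to the depth of the library, so levels of different genes can be compared per length. The RANKL + LEA group (2 libraries) received M-CSF at 30 ng/mL, RANKL at 100 ng/mL and LEA at 10 μg/mL. LEA is the ethyl acetate fraction of a water extract of the shiitake mushroom, Lentinula edodes. The RANKL group (2 libraries) received M-CSF and RANKL at the same doses and is given beside the others where it helps to place a value. The no RANKL group (2 libraries) received M-CSF alone at 30 ng/mL. M-CSF, on which macrophages depend for survival, was thus shared by all groups. No library analysed here had LEA without RANKL, so the parts of RANKL and of LEA cannot be told apart within this comparison. The cells were primary cultures of mouse bone marrow from animals 6 to 8 weeks old, named C57BL/6 in the labels and ICR in the methods. For the RNA-seq cultures, neither the time of harvest nor a solvent given to cells without LEA is stated. Nor is it stated whether the libraries of a group came from separate cultures or mice, so each p-value reflects only how far these libraries spread, which may be technical.

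RANKL binds its receptor RANK on macrophage precursors and acts through the adaptor TRAF6 and NF-κB, and then through c-Fos, to raise NFATc1, the transcription factor that commands osteoclast formation. The precursors then fuse into multinucleated osteoclasts, which attach to bone, seal off a space beneath them, pump protons into it and release proteases such as cathepsin K. As this happens, genes typical of macrophages are turned down in favour of those of the osteoclast. The study asked how LEA acts on this process. The comparison with no RANKL cells shows how far from macrophages kept in M-CSF alone the cells stood when both agents were present.

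Depth lay between 46382000 and 49589000 reads per library, and the replicate libraries correlated across genes at Pearson r between 0.985 and 0.988. A gene was called where limma, fitted to log2(FPKM + 0.1), gave an adjusted p (Benjamini-Hochberg) below 0.05 with at least a 1.5-fold change. In RANKL + LEA against no RANKL cells, 1846 genes were higher (15.5% of those tested) and 1399 were lower (11.8%). The share of calls that were higher was 56.9%, against 48.5% after each library was centred on its median and 47.8% after quantile normalization, so the larger side of the split turned with the scaling. At a 2-fold limit 972 genes were higher (8.16%) and 690 were lower (5.8%). The median change of all genes tested was 0.06 on the log2 scale, and the libraries of RANKL + LEA and no RANKL did not overlap for 70.8% of genes. RANKL alone against no RANKL, which shares the no RANKL libraries with this comparison, gave 2125 genes higher (17.8%) and 2125 lower (17.8%). RANKL + LEA against RANKL alone gave 540 genes higher (4.54%) and 211 lower (1.77%), or 6.31% in either direction. In what follows, log2 in parentheses gives the fold change of FPKM + 0.1 over no RANKL with its standard error (SE), with the adjusted p of limma after it. The count of each gene list below stands beside the shares over all genes, 15.5% higher and 11.8% lower. Counts near these are no result about the list. Lists and members were chosen with earlier results of these data known, so counts far from the shares are descriptions, not tests. A gene near 0 in no RANKL cells passed the filter only through libraries with RANKL, so it could hardly be lower. Fold changes of single genes are printed only where both group means were at least 2 FPKM. Those of lower genes depend on the 0.1 added before taking logs, and list medians include such genes. Of every gene called higher or lower and given with its levels, the RANKL + LEA and no RANKL libraries did not overlap. The genes of largest change were picked for not overlapping, so this adds no support to the calls.

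**Figure D1:**
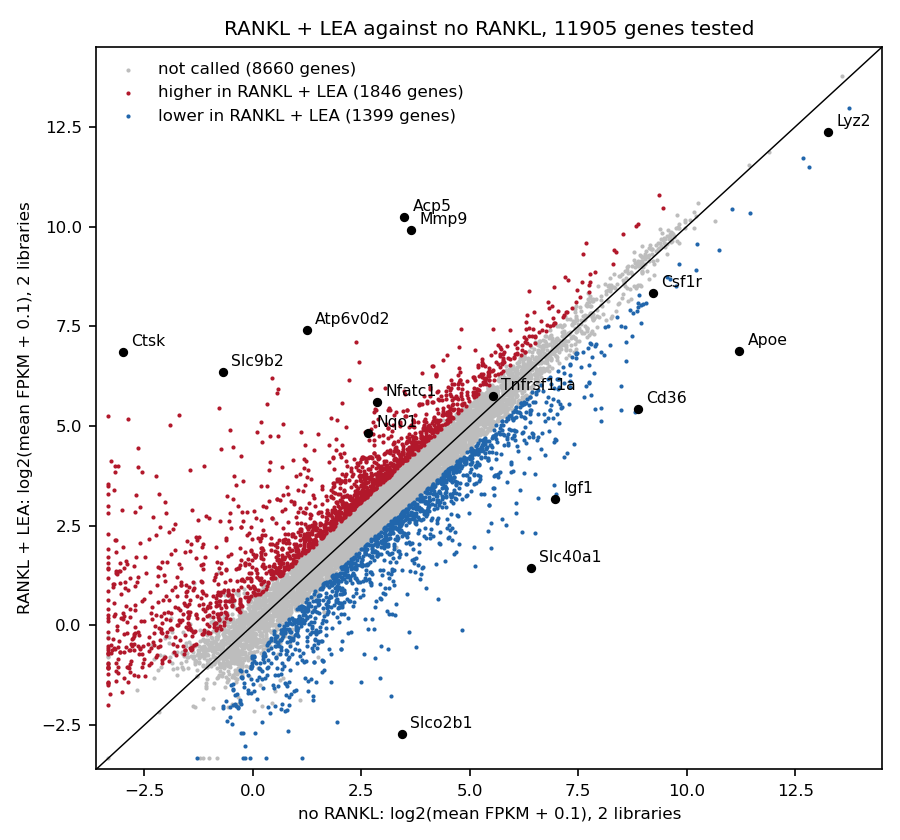
Each point is 1 of the 11905 genes tested, placed by log2 of its mean FPKM + 0.1 in the 2 RANKL + LEA libraries (vertical axis) and in the 2 no RANKL libraries (horizontal axis), with a line at equal levels. The 1846 genes called higher in RANKL + LEA cells are red, the 1399 called lower are blue and the other 8660 are grey. Acp5 and Mmp9 lie far above the line, Apoe and Slco2b1 far below it, and Tnfrsf11a near it.

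The cells carried the markers of their label and of the osteoclast, and little of any other lineage. All 9 macrophage markers listed passed the filter, and their summed level was 7331 and 5748 FPKM in RANKL + LEA, 4474 and 3779 in RANKL and 9948 and 13536 in no RANKL libraries. Of these, 6 were lower and 1, the leukocyte phosphatase Ptprc, was higher in RANKL + LEA than in no RANKL cells. All 9 osteoclast markers were higher, with sums of 2697 and 2557 FPKM in RANKL + LEA, 5948 and 5112 in RANKL and 28.1 and 29.7 in no RANKL libraries. Markers of stroma summed to 4.96 and 6.69 FPKM in RANKL + LEA against 7.48 and 7.68 in no RANKL libraries. The sum joins members that moved apart, and the bone gene Bglap was listed at 0 in all. Runx2 was higher, at 1.965 and 2.418 FPKM in RANKL + LEA against 0.835 and 0.779, while Col1a1 and Col1a2 were lower. Dendritic cell markers summed to 7.10 and 7.33 FPKM in RANKL + LEA against 4.13 and 4.14 in no RANKL libraries, most of it Itgax, with Flt3 under 0.04 FPKM throughout. Endothelial markers summed to 5.21 and 5.38 FPKM against 1.74 and 1.75 in the same groups, mostly from Kdr and Vwf, with Emcn and Tek at 0. Cdh5, below the filter, went the other way, at 0.137 and 0.193 FPKM against 0.332 and 0.396. Neutrophil markers reached 4.06 FPKM at most and those of T and NK, B, mast and erythroid cells 0.669 FPKM at most. In bulk RNA, fewer cells of a type and less RNA of a gene per cell cannot be told apart, so that intermediate levels can come from a mixture of cells or from all cells alike.

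The genes that osteoclasts use to attach to and resorb bone stood far above the no RANKL level in the presence of LEA. Of the 27 tested, 22 were higher and 2 were lower, with a median log2 change of 3.64. The size of this median depends on the value added before taking logs. It was 4.04 with a pseudocount of 0.01 and 2.22 with a pseudocount of 1, and 3.26 after quantile normalization, with 22 higher in each. Without 1 library in turn the number higher was 21 or 22. Acp5, the tartrate-resistant acid phosphatase by which osteoclasts are stained, was at 1300.4 and 1102 FPKM in RANKL + LEA, 2568 and 2022 in RANKL and 10.5 and 11.8 in no RANKL cells (log2 6.73 ± 0.15, limma adjusted p = 1e-07). The secreted gelatinase Mmp9 was at 905 and 1008 FPKM in RANKL + LEA, 2456 and 2255 in RANKL and 12.3 and 12.6 in no RANKL cells (log2 6.25 ± 0.10, limma adjusted p = 3.6e-08). Atp6v0d2, the osteoclast d2 subunit of the vacuolar proton pump, was at 175 and 166 FPKM in RANKL + LEA, 325 and 307 in RANKL and 2.32 and 2.23 in no RANKL cells (log2 6.16 ± 0.10, limma adjusted p = 3.6e-08). In each of these the no RANKL libraries were lowest, the RANKL libraries highest and the RANKL + LEA libraries lay between, with no overlap. The same order held for the sodium-proton exchanger Slc9b2, at 84.8 and 78.7 FPKM in RANKL + LEA, 155 and 149 in RANKL and 0.574 and 0.474 in no RANKL cells (limma adjusted p = 3.6e-08). It held for Itgb3, the β3 chain of the integrin that grips bone, at 60.1 and 62.5 FPKM in RANKL + LEA, 110.2 and 114 in RANKL and 1.33 and 1.46 in no RANKL cells (limma adjusted p = 6.2e-08). Src, the tyrosine kinase needed for the ruffled border, was at 42.8 and 44.03 FPKM in RANKL + LEA, 80.8 and 61.6 in RANKL and 0.479 and 0.484 in no RANKL cells (limma adjusted p = 1e-07). All 3 were thus at 1.46 FPKM or less with no RANKL. Mmp14, a membrane-bound metalloproteinase, reached 71.5 and 76.6 FPKM in RANKL + LEA against 1.45 and 1.08 in no RANKL cells. Siglec15, a sialic acid-binding receptor of the osteoclast surface, was at 14.6 and 13.8 FPKM in RANKL + LEA against 0.062 and 0.081 in no RANKL cells.

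Other members were at or near 0 without RANKL. Ctsk encodes cathepsin K, the main collagen-degrading protease of osteoclasts, and was at 123 and 107 FPKM in RANKL + LEA, 236 and 196 in RANKL and 0 and 0.053 in no RANKL cells. Car2, the carbonic anhydrase that supplies protons for the pump, was at 36.3 and 35.6 FPKM in RANKL + LEA, 96.8 and 94.3 in RANKL and 0 and 0.073 in no RANKL cells. Oscar, an immunoglobulin-like receptor that gives a costimulatory signal, was at 18.3 and 13.5 FPKM in RANKL + LEA, 37.6 and 29.4 in RANKL and 0 and 0.023 in no RANKL cells. Calcr, the calcitonin receptor, was at 12.5 and 10.1 FPKM in RANKL + LEA, 23.98 and 21.9 in RANKL and 0 and 0 in no RANKL cells. All 4 were present in both RANKL + LEA libraries and stood highest with RANKL alone. Smaller rises were also seen. Tcirg1, the osteoclast a3 subunit of the proton pump, was at 236 and 229 FPKM in RANKL + LEA against 87.1 and 90.7 in no RANKL cells (log2 1.39 ± 0.11, limma adjusted p = 4.6e-05). Clcn7, a chloride transporter that works beside the pump, was at 41.9 and 42.4 FPKM in RANKL + LEA against 11.3 and 11.9 in no RANKL cells (log2 1.85 ± 0.11, limma adjusted p = 1.1e-05). The exceptions were 2 genes. Itgb5, the β5 integrin chain of precursors, was at 26.96 and 25.6 FPKM in RANKL + LEA against 81.2 and 84.3 in no RANKL cells (log2 −1.65 ± 0.10, limma adjusted p = 1.3e-05). Ptk2b, the adhesion kinase PYK2, was at 33.1 and 36.2 FPKM in RANKL + LEA against 55.6 and 51.1 in no RANKL cells (log2 −0.62 ± 0.11, limma adjusted p = 0.0029). It was not called without RANKL + LEA replicate 1 or without no RANKL replicate 1. Gsn, Plekhm1 and Acp2 did not pass.

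**Figure D2:**
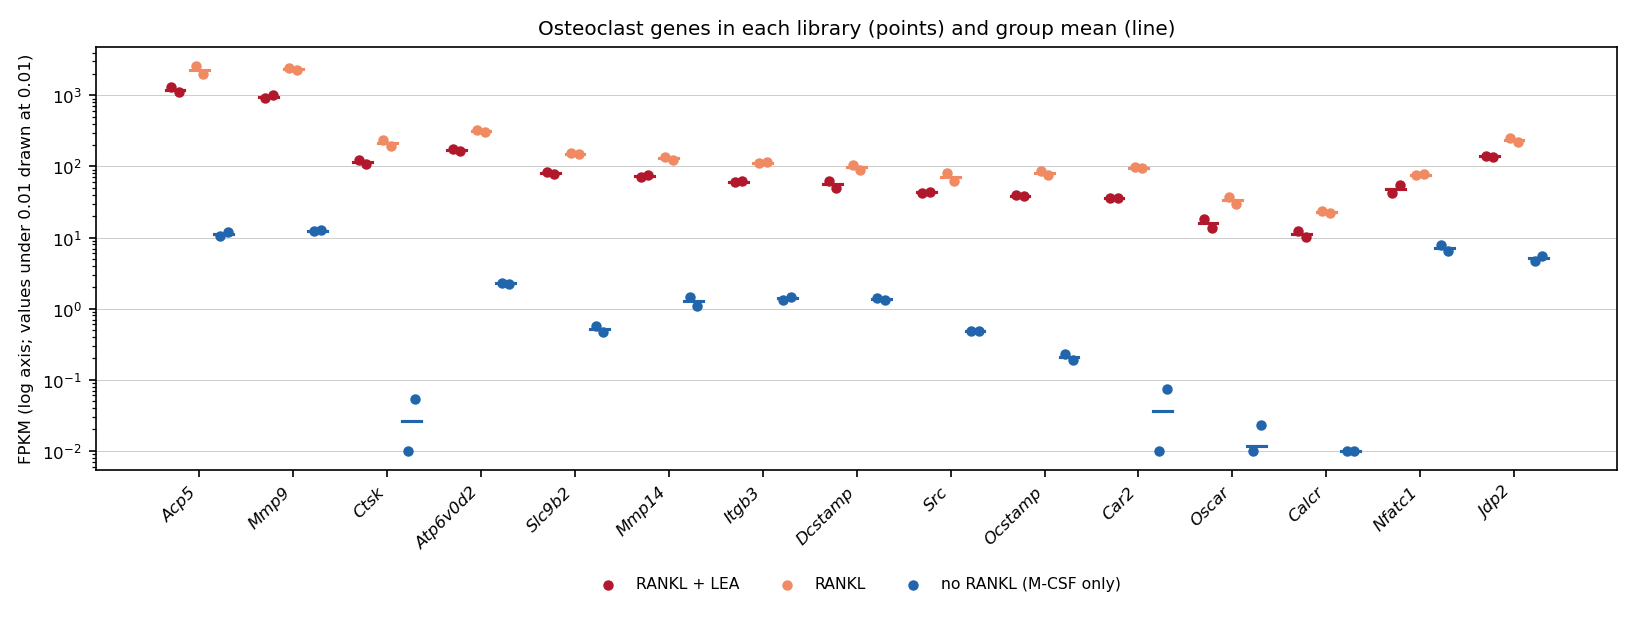
FPKM (log axis, values under 0.01 drawn at 0.01) of 15 osteoclast genes in each of the 2 RANKL + LEA (red), 2 RANKL (orange) and 2 no RANKL (blue) libraries, with a line at each group mean. In every gene shown, both RANKL + LEA libraries sit above both no RANKL libraries and below both RANKL libraries. The genes were picked for display, so this order is not a count over the whole list. Acp5, for example, is at 1300.4 and 1102 FPKM with RANKL + LEA.

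The promoters of the 4 resorption genes with the largest changes that had an entry are printed because these genes moved together from near silence. Each is the 250 bases before the RefSeq start (GRCm38.p6, the build of mm10), read 5′ to 3′ on the strand of the gene, and each start equals that of the deposited table. Capitals mark letters matching 4 motifs searched on both strands: TGANTCA (AP-1), TCACNTG (MITF and TFE factors), GGAAA (the NFAT core) and GAGGAA (the PU.1 core), of which the last pair can overlap.
Ctsk, chr3:95498960-95499209, plus strand: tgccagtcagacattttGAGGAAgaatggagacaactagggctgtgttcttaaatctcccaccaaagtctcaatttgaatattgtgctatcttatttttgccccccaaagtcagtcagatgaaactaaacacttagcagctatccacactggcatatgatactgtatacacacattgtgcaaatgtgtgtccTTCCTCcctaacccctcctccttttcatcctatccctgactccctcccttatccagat
Oscar, chr7:3616158-3616407, minus strand: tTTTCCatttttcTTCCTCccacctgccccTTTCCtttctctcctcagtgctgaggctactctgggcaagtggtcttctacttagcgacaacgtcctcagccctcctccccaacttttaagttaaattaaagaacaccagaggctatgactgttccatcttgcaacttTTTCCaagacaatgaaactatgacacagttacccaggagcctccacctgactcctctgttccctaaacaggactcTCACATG
Slc9b2, chr3:135307450-135307699, plus strand: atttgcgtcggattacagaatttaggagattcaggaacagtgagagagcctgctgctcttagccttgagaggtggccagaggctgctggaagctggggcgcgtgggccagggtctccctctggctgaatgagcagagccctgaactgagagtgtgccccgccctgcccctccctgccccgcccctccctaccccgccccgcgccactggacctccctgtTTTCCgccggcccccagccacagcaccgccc
Calcr, chr6:3763624-3763873, minus strand: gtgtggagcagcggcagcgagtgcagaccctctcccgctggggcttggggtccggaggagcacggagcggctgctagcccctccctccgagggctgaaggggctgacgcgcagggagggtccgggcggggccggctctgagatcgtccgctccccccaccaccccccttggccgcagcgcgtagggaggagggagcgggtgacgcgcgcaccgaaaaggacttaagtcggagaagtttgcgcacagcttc
The Ctsk window held 2 PU.1 cores, beginning 233 and 58 bases before the start. The Oscar window held 1 MITF or TFE match beginning 7 bases before the start, 3 NFAT cores and 1 PU.1 core. The Slc9b2 window held 1 NFAT core, beginning 31 bases before the start, and the Calcr window held none of the 4 motifs. As a description, TGANTCA occurred in 6.75% of all 32851 promoters of this length. It occurred in 6.73% of the promoters of 1396 genes called higher in RANKL + LEA cells, in 5.31% for 1055 genes called lower and in 3.99% for 6664 genes not called. TCACNTG occurred in 14.2% of all promoters, 12.4% of the higher, 13.6% of the lower and 12.6% of the uncalled class. GGAAA occurred in 55.6%, 54.2%, 54.5% and 54.8% of the same classes, and GAGGAA in 23.3%, 22.4%, 26.9% and 22.1%. A match is only a run of letters, and its absence says nothing of the factor.

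Genes of precursor fusion were split. Of 16 tested, 8 were higher and 3 lower, with a median log2 change of 0.55. Atp6v0d2, given above, is among the higher ones. Some genes stand in more than 1 list, so the counts of different lists are not separate evidence. Dcstamp encodes a membrane protein without which precursors do not fuse, and was at 63.2 and 50.5 FPKM in RANKL + LEA, 106 and 89.6 in RANKL and 1.42 and 1.33 in no RANKL cells (limma adjusted p = 2.1e-07). Its partner Ocstamp was at 39.996 and 37.9 FPKM in RANKL + LEA, 84.8 and 76.7 in RANKL and 0.226 and 0.191 in no RANKL cells (limma adjusted p = 3.6e-08). Both stood below RANKL and well above no RANKL. Tm4sf19, a four-span membrane protein, followed them at 30.4 and 29.1 FPKM in RANKL + LEA against 0.536 and 0.646 in no RANKL cells (limma adjusted p = 1.4e-07). The lower members were surface proteins too. The tetraspanin Cd81 was at 43.3 and 35.9 FPKM in RANKL + LEA against 94.6 and 116 in no RANKL cells (log2 −1.41 ± 0.16, limma adjusted p = 0.00033). The metalloprotease Adam8 was at 157 and 147 FPKM in RANKL + LEA against 418 and 441 in no RANKL cells (log2 −1.50 ± 0.12, limma adjusted p = 5.1e-05). Trem2, a receptor that signals through DAP12, was at 83.2 and 75.9 FPKM in RANKL + LEA against 204 and 264 in no RANKL cells (log2 −1.54 ± 0.15, limma adjusted p = 0.00015).

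Among 27 transcription factors that drive osteoclast formation, 12 were higher and 2 lower, with a median of 0.53. Nfatc1, the commanding factor, was at 41.6 and 55.3 FPKM in RANKL + LEA, 75.1 and 78.1 in RANKL and 7.94 and 6.44 in no RANKL cells (log2 2.73 ± 0.16, limma adjusted p = 9.4e-06). Fos, which acts before it, was at 79.9 and 76.2 FPKM in RANKL + LEA, 77.4 and 60.3 in RANKL and 17.6 and 19.6 in no RANKL cells (log2 2.06 ± 0.14, limma adjusted p = 1.8e-05). The RANKL + LEA and RANKL libraries overlapped for Fos and did not for Nfatc1. With 2 libraries a group, overlap is a weak measure of a difference, and the limma test between these groups is not reported here for either gene. Jdp2, an AP-1 family factor that pairs with Jun proteins, was at 139.7 and 137 FPKM in RANKL + LEA, 252 and 220.3 in RANKL and 4.74 and 5.46 in no RANKL cells (log2 4.74 ± 0.12, limma adjusted p = 1.3e-07). Fosl2, another AP-1 member, was at 54.97 and 66.9 FPKM in RANKL + LEA against 6.65 and 6.12 in no RANKL cells (log2 3.23 ± 0.12, limma adjusted p = 1e-06). Prdm1 encodes Blimp1, which silences genes of the macrophage, and was at 12.8 and 14.7 FPKM in RANKL + LEA against 2.04 and 2.004 in no RANKL cells (log2 2.70 ± 0.12, limma adjusted p = 2.2e-06). NF-κB subunits differed. Nfkb2, of the alternative pathway, was at 74.5 and 82.4 FPKM in RANKL + LEA against 18.8 and 18.6 in no RANKL cells (log2 2.06 ± 0.11, limma adjusted p = 5.5e-06). Rela, the p65 subunit, was at 23.6 and 26.9 FPKM in RANKL + LEA against 26.4 and 27.2 in no RANKL cells, with a log2 change of −0.09 (95% interval −0.36 to 0.19). Lower were 2 members, both of the AP-1 family, and 4 members without RANKL + LEA replicate 2 or after median centring. Jun was at 13.9 and 13.3 FPKM in RANKL + LEA against 29.9 and 30.5 in no RANKL cells (log2 −1.14 ± 0.13, limma adjusted p = 0.00038). Fosl1 was at 0.652 and 0.949 FPKM in RANKL + LEA against 1.55 and 1.46 in no RANKL cells. Its call was lost without RANKL + LEA replicate 1, without either no RANKL replicate and with pseudocounts of 0.01 and 1. Entering the replicate number as a block lost it too.

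The factors that hold osteoclast formation back went both ways. Of 21 tested, 8 were higher and 6 lower, with a median of 0.03. After median centring 6 were higher and 7 lower, and after quantile normalization 5 and 7, with medians just below 0, so the list had no stable direction. Irf8, whose loss is a known step of osteoclast commitment, was at 10.7 and 10.9 FPKM in RANKL + LEA, 7.36 and 6.14 in RANKL and 45.6 and 46.9 in no RANKL cells (log2 −2.09 ± 0.12, limma adjusted p = 7.9e-06). Id1, an inhibitor of helix-loop-helix factors, was at 3.26 and 2.41 FPKM in RANKL + LEA against 17.8 and 19.5 in no RANKL cells (log2 −2.69 ± 0.17, limma adjusted p = 1.3e-05). Bcl6, a repressor that Blimp1 opposes, was at 7.56 and 7.48 FPKM in RANKL + LEA against 14.8 and 14.4 in no RANKL cells (log2 −0.94 ± 0.11, limma adjusted p = 0.00038). Klf2 and Pias3 were lower as well. Tnfaip3, the deubiquitinase A20 that limits NF-κB, was instead higher, at 10.8 and 9.85 FPKM in RANKL + LEA against 1.65 and 2.28 in no RANKL cells (limma adjusted p = 3.5e-05). So was Klf4, a factor of monocyte fate, at 8.45 and 7.81 FPKM in RANKL + LEA, 4.78 and 4.74 in RANKL and 1.73 and 1.96 in no RANKL cells (limma adjusted p = 1.2e-05).

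In the RANK and costimulatory pathway, 8 of 31 genes were higher and 7 lower. RANK itself (Tnfrsf11a) was at 52.8 and 55.1 FPKM in RANKL + LEA, 69.9 and 62.3 in RANKL and 46.9 and 45.3 in no RANKL cells, with a log2 change against no RANKL of 0.23 (95% interval −0.01 to 0.46). Traf6 was at 8.39 and 8.41 FPKM in RANKL + LEA, 10.9 and 10.3 in RANKL and 4.89 and 4.92 in no RANKL cells (log2 0.76 ± 0.11, limma adjusted p = 0.00096). The interval for the receptor thus stayed within 1.5-fold, while its adaptor rose. Traf1, an adaptor induced by NF-κB, was at 29.5 and 28.4 FPKM in RANKL + LEA against 0.899 and 1.04 in no RANKL cells (limma adjusted p = 3e-07). Blnk, an adaptor of the costimulatory arm, was at 34.9 and 33.5 FPKM in RANKL + LEA against 13.4 and 14.4 in no RANKL cells (log2 1.29 ± 0.10, limma adjusted p = 5.5e-05). The lower members included an Fc receptor, Fcgr3, at 25.9 and 24.8 FPKM in RANKL + LEA against 118 and 132 in no RANKL cells (log2 −2.29 ± 0.11, limma adjusted p = 4e-06). Its signalling chain Fcer1g, Trem2, the exchange factor Vav3, the calcium exchanger Slc8a1, Plcg1 and Ppp3ca were the others. Plcg1 and Ppp3ca lost the call without no RANKL replicate 1. Without that library 5 of the 31 genes were higher and 5 lower, and under both rescalings 6 were higher and 7 lower.

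Most genes of the vacuolar proton pump and of the tricarboxylic acid cycle were higher, and so were 36 of 72 of the respiratory chain and ATP synthase. Of 19 pump subunits and partners, 13 were higher and 2 lower, with a median log2 change of 0.99. Atp6v1d, a subunit of the catalytic V1 part, was at 95.2 and 86.7 FPKM in RANKL + LEA, 159 and 146 in RANKL and 16.3 and 18.7 in no RANKL cells (log2 2.37 ± 0.11, limma adjusted p = 3.6e-06). The a1 isoform Atp6v0a1 was lower, at 12.3 and 14.98 FPKM in RANKL + LEA against 52.4 and 45.3 in no RANKL cells (log2 −1.84 ± 0.13, limma adjusted p = 2.8e-05), while the a3 isoform Tcirg1 was higher as given above. Atp6v0e2 was the other lower one, and was not called without RANKL + LEA replicate 2 or no RANKL replicate 2. The other 36 genes of the respiratory chain and ATP synthase did not pass, and the median of the 72 was 0.58. The number higher was 20 without no RANKL replicate 1, and ranged up to 51 without another library. Cyc1, of complex III, was at 127 and 124 FPKM in RANKL + LEA against 49.8 and 54.2 in no RANKL cells (log2 1.27 ± 0.10, limma adjusted p = 3.7e-05). Uqcrfs1, its iron-sulfur subunit, was at 105 and 89.01 FPKM in RANKL + LEA against 36.8 and 40.5 in no RANKL cells (log2 1.33 ± 0.12, limma adjusted p = 0.00012). Of 26 genes around the tricarboxylic acid cycle, 19 were higher and 7 did not pass, with a median of 0.77. Idh3a, a subunit of isocitrate dehydrogenase, was at 57.05 and 51.2 FPKM in RANKL + LEA against 19.6 and 20.6 in no RANKL cells (log2 1.42 ± 0.10, limma adjusted p = 2.8e-05). Dlat and Dld, of the pyruvate dehydrogenase complex, were higher as well. For RANKL alone against no RANKL the medians were 1.40 for the pump, 0.96 for the respiratory chain and 1.26 for the cycle. Of 15 regulators of mitochondrial biogenesis 3 were higher and 1 lower. Ppargc1b (PGC-1β), a coactivator that raises mitochondrial number in osteoclasts, was at 10.2 and 14.3 FPKM in RANKL + LEA against 0.961 and 0.551 in no RANKL cells (limma adjusted p = 1.4e-05). The lower one, Polg2, lost its call without RANKL + LEA replicate 2, without either no RANKL replicate, with a pseudocount of 1 and with no filter. The number higher was 5 without RANKL + LEA replicate 2 or without no RANKL replicate 2.

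The cytoskeleton, the integrins and the signals that osteoclasts send were changed in part. Of 34 podosome and actin genes 11 were higher and 4 lower. Dock5, an activator of Rac needed for the sealing zone, was at 42.4 and 52.1 FPKM in RANKL + LEA against 4.33 and 3.76 in no RANKL cells (log2 3.51 ± 0.13, limma adjusted p = 1e-06). The myosin Myo1d was at 30.1 and 38.1 FPKM in RANKL + LEA against 1.25 and 0.851 in no RANKL cells (limma adjusted p = 1e-06), and Cttn (cortactin), which helps branch actin, was also higher. Marcks, Marcksl1, Plek and Vav3 were lower. Of 14 integrin chains 7 were higher and 4 lower, and with no filter the same numbers were called among 19. The α2 chain Itga2 was at 2.43 and 2.55 FPKM in RANKL + LEA against 0.030 and 0.009 in no RANKL cells, and Itgb7 was at 37.9 and 33.8 FPKM in RANKL + LEA against 7.32 and 7.22 in no RANKL cells (log2 2.28 ± 0.11, limma adjusted p = 3.7e-06). Itgal, the α chain of LFA-1, was at 18.4 and 16.9 FPKM in RANKL + LEA against 42.97 and 43.04 in no RANKL cells (log2 −1.28 ± 0.15, limma adjusted p = 0.00042), with Itga6, Itga9 and Itgb5 also lower. Among 19 genes for signals to bone-forming cells, 12 were higher and 4 lower, with a median of 1.05. With no filter 13 of 25 were higher and 4 lower, with a median of 0.69. Members near 0 in no RANKL cells, such as Sema7a and Sphk1, passed the filter only through libraries with RANKL. Complement C3 was at 62.1 and 60.3 FPKM in RANKL + LEA, 34.9 and 35.5 in RANKL and 6.76 and 6.301 in no RANKL cells (log2 3.21 ± 0.10, limma adjusted p = 3.6e-07). Sema7a, a semaphorin, was at 4.84 and 3.85 FPKM in RANKL + LEA against 0.013 and 0.013 in no RANKL cells. Sphk1, which makes sphingosine-1-phosphate, was at 2.25 and 2.73 FPKM in RANKL + LEA against 0.024 and 0 in no RANKL cells. Outside the list, the exporter of that lipid, Spns2, was at 14.8 and 16.1 FPKM in RANKL + LEA against 0.078 and 0.045 in no RANKL cells. Igf1, the insulin-like growth factor, moved the other way, at 8.73 and 8.95 FPKM in RANKL + LEA, 2.38 and 3.13 in RANKL and 126 and 124 in no RANKL cells (log2 −3.81 ± 0.14, limma adjusted p = 9.1e-07). Osm, Hgf and Tgfb1 were lower too. Osm lost its call without no RANKL replicate 1, Tgfb1 without it or without RANKL + LEA replicate 1, and Hgf without any 1 of the 4 libraries. Without no RANKL replicate 1 only Igf1 of these was called lower.

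Genes that mark macrophages were lower nearly throughout. Of 27 tested, 24 were lower and 3 did not pass, with a median log2 change of −1.91, and leaving out each library in turn left 21 to 24. Apoe, the apolipoprotein that carries cholesterol out of macrophages, was at 123 and 112 FPKM in RANKL + LEA, 71.7 and 62.2 in RANKL and 2268 and 2475 in no RANKL cells (log2 −4.33 ± 0.11, limma adjusted p = 2e-07). Slc40a1, the iron exporter ferroportin, was at 2.998 and 2.202 FPKM in RANKL + LEA, 1.41 and 1.44 in RANKL and 80.5 and 90.2 in no RANKL cells (log2 −5.00 ± 0.16, limma adjusted p = 4.4e-07). In both, the RANKL + LEA libraries lay far nearer to RANKL than to no RANKL. Cd36, a scavenger receptor for oxidised lipid, was at 45.4 and 40.4 FPKM in RANKL + LEA, 17.95 and 16.9 in RANKL and 435 and 506 in no RANKL cells (log2 −3.45 ± 0.12, limma adjusted p = 6e-07). Siglec1, a receptor for sialylated ligands, was at 9.12 and 8.94 FPKM in RANKL + LEA, 5.11 and 4.97 in RANKL and 101 and 89.001 in no RANKL cells (log2 −3.38 ± 0.11, limma adjusted p = 4.4e-07). Gas6, a bridging ligand for dying cells, was at 5.099 and 4.69 FPKM in RANKL + LEA against 80.01 and 100.2 in no RANKL cells (log2 −4.17 ± 0.19, limma adjusted p = 2.5e-06). Lyz2, Adgre1 and Csf1r, by which these cells are often recognised, were lower as well, and Fcgr1 and Cd14 are given below. Lyz2, which encodes lysozyme, was at 6041 and 4497 FPKM in RANKL + LEA, 3162 and 2539 in RANKL and 8083 and 11578 in no RANKL cells (log2 −0.89 ± 0.22, limma adjusted p = 0.013). Its call was lost without RANKL + LEA replicate 2 and under quantile normalization. Adgre1, which encodes F4/80, was at 194 and 166 FPKM in RANKL + LEA, 105 and 97.7 in RANKL and 260.5 and 299 in no RANKL cells (log2 −0.64 ± 0.12, limma adjusted p = 0.0043). It was not called without RANKL + LEA replicate 2 or without no RANKL replicate 2. Csf1r, the receptor for M-CSF, was at 325 and 322 FPKM in RANKL + LEA, 350.0 and 351 in RANKL and 606 and 589 in no RANKL cells (log2 −0.89 ± 0.09, limma adjusted p = 0.00022). Cd68, Itgam and Pltp did not pass, with Cd68 at 469 and 479 FPKM in RANKL + LEA against 515 and 568 in no RANKL cells.

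**Figure D3:**
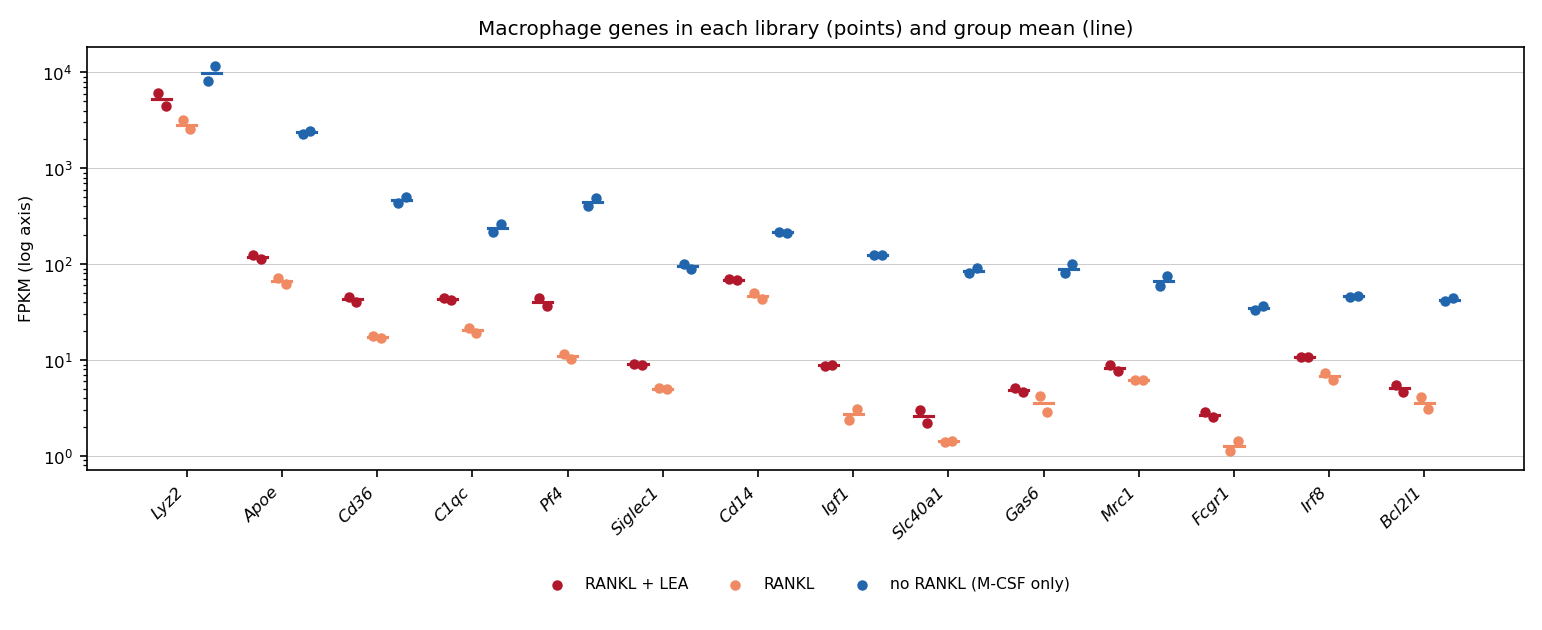
FPKM (log axis) of 14 genes, most of them macrophage markers, in each of the 2 RANKL + LEA (red), 2 RANKL (orange) and 2 no RANKL (blue) libraries, with a line at each group mean. Both RANKL + LEA libraries sit below both no RANKL libraries and above both RANKL libraries in all 14, which were picked for display. Other macrophage markers break this order. Csf1r is at 325 and 322 FPKM with RANKL + LEA and 350.0 and 351 with RANKL, and Cd68 at 469 and 479 against 616 and 583. Apoe is at 123 and 112 FPKM with RANKL + LEA, against 2268 and 2475 FPKM with no RANKL.

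In each list of innate immunity more genes were lower than higher, and many were not called. Of 21 scavenger and lectin receptors, 8 were lower and 5 higher. Stab1, a scavenger receptor of tissue macrophages, was at 22.1 and 24.5 FPKM in RANKL + LEA against 176 and 164 in no RANKL cells (log2 −2.86 ± 0.11, limma adjusted p = 1e-06). Mrc1, the mannose receptor, was at 8.82 and 7.698 FPKM in RANKL + LEA against 59.7 and 74.9 in no RANKL cells (log2 −3.01 ± 0.14, limma adjusted p = 2.7e-06). The 5 higher ones were all lectins: Clec4a1, Clec4a2, Clec4a3, Clec5a and Lgals3. Lgals3, which encodes galectin-3, was at 677 and 648 FPKM in RANKL + LEA against 314 and 353 in no RANKL cells (log2 0.99 ± 0.10, limma adjusted p = 0.00021). Of 6 Fc gamma receptor genes 4 were lower and 2 did not pass. The high-affinity receptor Fcgr1 was at 2.88 and 2.54 FPKM in RANKL + LEA, 1.14 and 1.43 in RANKL and 32.99 and 36.7 in no RANKL cells (log2 −3.64 ± 0.15, limma adjusted p = 1.6e-06). Of 13 complement genes 6 were lower and 2 higher (1 higher without RANKL + LEA replicate 1 or no RANKL replicate 1), and all 3 chains of C1q were among the lower. C1qb was at 20.8 and 18.8 FPKM in RANKL + LEA against 141 and 163 in no RANKL cells (log2 −2.93 ± 0.12, limma adjusted p = 1.5e-06). Of 27 Toll-like receptors and adaptors 6 were lower and 2 higher. The number lower was 10 after median centring and also 10 without no RANKL replicate 1. Tlr13, a receptor for bacterial ribosomal RNA, was at 30.8 and 28.02 FPKM in RANKL + LEA against 110.2 and 117 in no RANKL cells (log2 −1.95 ± 0.10, limma adjusted p = 5.1e-06). Cd14, the lipopolysaccharide co-receptor, was at 70.2 and 67.9 FPKM in RANKL + LEA against 217 and 213 in no RANKL cells (log2 −1.64 ± 0.10, limma adjusted p = 1.4e-05). Nlrp3, the inflammasome sensor, was at 6.24 and 6.47 FPKM in RANKL + LEA against 19.4 and 18.7 in no RANKL cells (log2 −1.57 ± 0.11, limma adjusted p = 2.1e-05). The higher ones were the flagellin receptor Tlr5 and Tlr2, a receptor for lipopeptides. Tlr2 was at 39.97 and 33.03 FPKM in RANKL + LEA, 18.1 and 15.3 in RANKL and 22.98 and 25.1 in no RANKL cells, and its call was lost under both rescalings, with a pseudocount of 1 and without RANKL + LEA replicate 1 or no RANKL replicate 1.

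Chemokines that passed the filter were mostly lower, 10 of 17 against 4 higher, with a median of −1.64, or −1.03 with a pseudocount of 1. With no filter 9 of 22 were lower and 4 higher, with a median of −0.76. Pf4 (CXCL4) was at 44.1 and 36.7 FPKM in RANKL + LEA, 11.6 and 10.3 in RANKL and 400.3 and 495 in no RANKL cells (log2 −3.46 ± 0.14, limma adjusted p = 1.7e-06). Cxcl14 was at 23.4 and 25.02 FPKM in RANKL + LEA against 127 and 119 in no RANKL cells (log2 −2.35 ± 0.12, limma adjusted p = 4.5e-06), and Ccl4, Ccl7, Ccl3 and Ccl2, which draw monocytes and other leukocytes, were lower as well. Cxcl10, an attractant of T cells, was higher, at 28.2 and 27.6 FPKM in RANKL + LEA against 1.74 and 3.75 in no RANKL cells (log2 3.39 ± 0.31, limma adjusted p = 0.00011). Ccl9, which osteoclasts secrete, was at 493 and 435 FPKM in RANKL + LEA against 220.0 and 251 in no RANKL cells (log2 0.98 ± 0.11, limma adjusted p = 0.00036), and Ccl5 and Ccl22 were the other 2 higher. Of 9 chemokine receptors 4 were lower and 2 higher. Ccr1, a receptor of Ccl9, was at 45.7 and 35.8 FPKM in RANKL + LEA against 6.597 and 7.14 in no RANKL cells (log2 2.54 ± 0.14, limma adjusted p = 7.1e-06). Cx3cr1, the fractalkine receptor, was at 17.3 and 15.6 FPKM in RANKL + LEA against 63.7 and 60.8 in no RANKL cells (log2 −1.91 ± 0.13, limma adjusted p = 2.4e-05). Of 17 inflammatory cytokines and their feedback genes 9 were higher and 4 lower, or 2 lower without no RANKL replicate 1. Il1rn, the antagonist of interleukin-1, was at 25.3 and 25.1 FPKM in RANKL + LEA, 17.02 and 16.5 in RANKL and 4.196 and 3.23 in no RANKL cells (log2 2.74 ± 0.14, limma adjusted p = 4.3e-06), and Hbegf and Lif were higher with it. Tnf was at 4.61 and 3.18 FPKM in RANKL + LEA against 6.89 and 10.3 in no RANKL cells (log2 −1.12 ± 0.31, limma adjusted p = 0.023). It was not called without RANKL + LEA replicate 2 or without no RANKL replicate 2. Of 34 receptors for cytokines and growth factors 11 were higher and 10 lower, a split of 11 and 11 after median centring and 10 and 11 after quantile normalization. Il2rg, the common γ chain, was at 123 and 116 FPKM in RANKL + LEA against 33.3 and 35.9 in no RANKL cells (log2 1.79 ± 0.10, limma adjusted p = 9e-06). Tgfbr1, a receptor of TGF-β, was at 31.7 and 31.7 FPKM in RANKL + LEA against 12.7 and 12.7 in no RANKL cells (log2 1.31 ± 0.09, limma adjusted p = 2.9e-05).

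Antigen presentation and interferon genes were raised in part. Of 16 genes of MHC class II and costimulation 8 were higher and 3 lower. The median against no RANKL was 0.66 in RANKL + LEA and 0.18 in RANKL cells. Ifi30, a reductase that prepares antigen in the lysosome, was at 352 and 319.7 FPKM in RANKL + LEA, 542 and 452 in RANKL and 72.3 and 93.2 in no RANKL cells (log2 2.03 ± 0.15, limma adjusted p = 3.3e-05). Cd274, the checkpoint ligand PD-L1, was at 11.5 and 11.02 FPKM in RANKL + LEA against 1.03 and 1.05 in no RANKL cells (limma adjusted p = 1.8e-06). Icosl, Cd83 and H2-DMa were the 3 lower. Of 7 dendritic cell markers the 2 that passed the filter, Itgax and Zbtb46, moved with this list, with the sums given above and Flt3 near 0, and their part in it was not tested. Of 35 interferon-stimulated genes 11 were higher and 1 lower, with 3 lower under both rescalings and 2 without RANKL + LEA replicate 1. Their median against no RANKL was 0.25 in RANKL + LEA and −0.20 in RANKL cells. Gbp2, a guanylate-binding protein, was at 9.25 and 7.75 FPKM in RANKL + LEA against 1.85 and 1.84 in no RANKL cells (limma adjusted p = 3.8e-05). Its relative Gbp3 was at 5.49 and 5.303 FPKM in RANKL + LEA against 0.724 and 0.746 in no RANKL cells (limma adjusted p = 4.3e-06). Ddx58, which encodes the RNA sensor RIG-I, was at 22.9 and 21.03 FPKM in RANKL + LEA against 9.51 and 10.01 in no RANKL cells (log2 1.16 ± 0.10, limma adjusted p = 9.8e-05). The lower one, Stat2, was at 10.7 and 10.9 FPKM in RANKL + LEA against 17.2 and 17.98 in no RANKL cells (log2 −0.70 ± 0.11, limma adjusted p = 0.0017).

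The cell cycle genes divided by phase. Of 45 genes of DNA replication 19 were lower and 26 did not pass, with a median of −0.43. Of 40 genes of mitosis 18 were higher and 1 lower, with a median of 0.55. For RANKL alone against no RANKL these medians were −0.93 for replication and −0.01 for mitosis. Lig1, the replicative DNA ligase, was at 30.6 and 32.04 FPKM in RANKL + LEA, 22.2 and 21.8 in RANKL and 77.7 and 78.1 in no RANKL cells (log2 −1.31 ± 0.09, limma adjusted p = 2.7e-05). Pcna, the sliding clamp, was at 145 and 132 FPKM in RANKL + LEA, 103 and 88.6 in RANKL and 360.1 and 414 in no RANKL cells (log2 −1.48 ± 0.12, limma adjusted p = 5.7e-05). Among the mitotic genes, the cyclin Ccnb2 was at 46.9 and 36.8 FPKM in RANKL + LEA, 37.6 and 31.3 in RANKL and 10.1 and 13.1 in no RANKL cells (log2 1.84 ± 0.17, limma adjusted p = 0.00012). Cdc20, the activator of the anaphase-promoting complex, was at 50.3 and 49.5 FPKM in RANKL + LEA, 43.2 and 36.9 in RANKL and 18.6 and 20.5 in no RANKL cells (log2 1.35 ± 0.11, limma adjusted p = 6.8e-05). Cenpa, the histone of the centromere, was at 42.4 and 35.5 FPKM in RANKL + LEA against 12.5 and 13.9 in no RANKL cells (log2 1.55 ± 0.13, limma adjusted p = 6.8e-05). The member against the others was Incenp, at 40.4 and 41.5 FPKM in RANKL + LEA against 61.3 and 67.2 in no RANKL cells, not called without no RANKL replicate 2. Of 21 G1 cyclins and inhibitors of the cycle 10 were lower and 11 did not pass. Cyclin D1 (Ccnd1) was at 61.3 and 47.99 FPKM in RANKL + LEA against 222 and 224 in no RANKL cells (log2 −2.04 ± 0.14, limma adjusted p = 2e-05). Cyclin D2 (Ccnd2) was at 0.526 and 0.661 FPKM in RANKL + LEA against 14.9 and 12.05 in no RANKL cells. The inhibitor Cdkn2b was at 3.16 and 3.08 FPKM in RANKL + LEA against 9.35 and 9.24 in no RANKL cells (log2 −1.55 ± 0.11, limma adjusted p = 3.4e-05).

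Regulators of cell survival were split. In the BCL2 family 4 of 18 were higher and 4 lower. Bcl2l1 (BCL-XL), which protects from apoptosis, was at 5.48 and 4.64 FPKM in RANKL + LEA, 4.09 and 3.06 in RANKL and 41.1 and 44.4 in no RANKL cells (log2 −3.06 ± 0.16, limma adjusted p = 5.3e-06). Bmf, which promotes apoptosis, was at 6.67 and 6.04 FPKM in RANKL + LEA against 0.888 and 1.03 in no RANKL cells (limma adjusted p = 1e-05). Pmaip1 (Noxa), also a promoter of apoptosis and a p53 target, was at 15.2 and 11.3 FPKM in RANKL + LEA against 1.84 and 1.92 in no RANKL cells (limma adjusted p = 2e-05). The near-identical copies Bcl2a1a and Bcl2a1b were called in opposite directions and can share reads, so their values are uncertain. Of 18 p53 targets 5 were higher and 5 lower. The death receptor Fas was at 10.7 and 8.74 FPKM in RANKL + LEA against 1.36 and 1.97 in no RANKL cells (limma adjusted p = 9.5e-05). Cdkn1a (p21) was at 82.6 and 71.9 FPKM in RANKL + LEA against 151 and 167 in no RANKL cells (log2 −1.04 ± 0.11, limma adjusted p = 0.00026).

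Sterol synthesis was lower. Of 24 genes of that pathway 16 were lower and 8 did not pass, with a median against no RANKL of −0.82 in RANKL + LEA and −0.85 in RANKL cells. Fdft1, squalene synthase, was at 12.9 and 12.4 FPKM in RANKL + LEA, 9.83 and 9.79 in RANKL and 35.4 and 40.3 in no RANKL cells (log2 −1.57 ± 0.11, limma adjusted p = 2.3e-05). Of 17 genes of fatty acid synthesis 5 were lower and 1 higher. Fads2, a desaturase, was at 2.03 and 2.28 FPKM in RANKL + LEA against 13.97 and 14.8 in no RANKL cells (log2 −2.69 ± 0.13, limma adjusted p = 4.1e-06). The higher one, the ligase Acsl1, was at 33.5 and 32.3 FPKM in RANKL + LEA against 8.61 and 8.04 in no RANKL cells (log2 1.97 ± 0.11, limma adjusted p = 7.8e-06). Among 17 targets of the sterol receptor LXR 4 were lower and 3 higher. Apoe was the lowest of them, and the lipase Lpl was at 369 and 359 FPKM in RANKL + LEA against 894 and 834 in no RANKL cells (log2 −1.25 ± 0.11, limma adjusted p = 6.8e-05). Nr1h3, which encodes LXRα, was at 19.8 and 20.1 FPKM in RANKL + LEA against 4.39 and 4.08 in no RANKL cells (log2 2.21 ± 0.11, limma adjusted p = 4.2e-06). The transporter Abcg1 was at 18.5 and 15.6 FPKM in RANKL + LEA against 5.57 and 6.43 in no RANKL cells (log2 1.49 ± 0.15, limma adjusted p = 0.00017). Abca1 was also higher and lost its call without RANKL + LEA replicate 2 or no RANKL replicate 1.

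Genes of the defence against oxidants and foreign compounds went both ways. Of 29 targets of NRF2 and genes of glutathione 10 were lower and 4 higher, with a median of −0.22. Hmox1, heme oxygenase 1, was at 44.5 and 42.6 FPKM in RANKL + LEA, 28.9 and 24.1 in RANKL and 252 and 272 in no RANKL cells (log2 −2.59 ± 0.12, limma adjusted p = 2.5e-06). Fth1, the heavy chain of ferritin, was at 2674 and 3107 FPKM in RANKL + LEA against 7211 and 7124 in no RANKL cells (log2 −1.31 ± 0.12, limma adjusted p = 0.0001), and was not called under quantile normalization. Nqo1, a quinone reductase that NRF2 and the aryl hydrocarbon receptor both raise, was at 29.96 and 26.4 FPKM in RANKL + LEA, 6.201 and 5.67 in RANKL and 5.42 and 7.07 in no RANKL cells (log2 2.17 ± 0.15, limma adjusted p = 2.3e-05). Gpx1, Slc7a11 and Gstp1 were the other 3 higher, Gstp1 not without RANKL + LEA replicate 2 or no RANKL replicate 1. Of 14 aryl hydrocarbon receptor targets and Ugt1a enzymes 5 were higher and 9 did not pass. The repressor of that receptor, Ahrr, was at 32.6 and 29.6 FPKM in RANKL + LEA, 15.7 and 14.98 in RANKL and 4.12 and 4.53 in no RANKL cells (log2 2.82 ± 0.11, limma adjusted p = 1.3e-06). Tiparp, also a repressor of it, was at 14.7 and 12.2 FPKM in RANKL + LEA against 3.89 and 4.68 in no RANKL cells (log2 1.63 ± 0.14, limma adjusted p = 9e-05). The cytochrome Cyp1b1 was at 1.15 and 1.16 FPKM in RANKL + LEA, 0.192 and 0.210 in RANKL and 0.307 and 0.226 in no RANKL cells. The 8 Ugt1a genes tested share exons and so reads, and did not pass against no RANKL.

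Stress response genes were more often lower. Of 28 genes of the unfolded protein and integrated stress responses 12 were lower and 4 higher, or 2 higher without RANKL + LEA replicate 1, without no RANKL replicate 1 or after median centring. Pdia6, a disulfide isomerase of the endoplasmic reticulum, was at 69.99 and 64.8 FPKM in RANKL + LEA against 134 and 156 in no RANKL cells (log2 −1.10 ± 0.11, limma adjusted p = 0.00021). Sdf2l1, of the same compartment, was at 37.7 and 32.5 FPKM in RANKL + LEA against 95.5 and 119 in no RANKL cells (log2 −1.60 ± 0.18, limma adjusted p = 0.00029). Ppp1r15a (GADD34), which ends the integrated response, was higher, at 7.29 and 6.74 FPKM in RANKL + LEA against 2.601 and 2.92 in no RANKL cells (log2 1.32 ± 0.18, limma adjusted p = 0.00084). Of 19 genes of iron handling 8 were lower and 3 higher. Steap4, a metalloreductase listed at 0 in both no RANKL libraries, was at 5.000 and 4.63 FPKM in RANKL + LEA. Ncoa4, the receptor for ferritin breakdown, was at 71.5 and 61.7 FPKM in RANKL + LEA against 23.99 and 25.8 in no RANKL cells (log2 1.41 ± 0.12, limma adjusted p = 5.7e-05).

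Other enzymes and transporters showed single large changes. Of 38 lysosomal hydrolases and partners 9 were lower and 4 higher, Ctsk among them. The sphingomyelinase Smpd1 was at 24.7 and 23.1 FPKM in RANKL + LEA against 8.83 and 9.96 in no RANKL cells (log2 1.34 ± 0.12, limma adjusted p = 9.2e-05). The aminopeptidase Ctsc was at 28.9 and 25.6 FPKM in RANKL + LEA against 62.01 and 68.1 in no RANKL cells (log2 −1.25 ± 0.11, limma adjusted p = 9.6e-05). Of 17 matrix proteases and inhibitors 6 were lower and 2, Mmp9 and Mmp14, were higher. The urokinase Plau was at 14.2 and 8.54 FPKM in RANKL + LEA against 111 and 135 in no RANKL cells (log2 −3.46 ± 0.28, limma adjusted p = 5e-05). Of 25 glycolytic genes 4 were lower, 7 after median centring, and 2 higher, not far from the shares over all genes (11.8% and 15.5%). Hk3, a hexokinase of myeloid cells, was at 28.4 and 28.1 FPKM in RANKL + LEA against 97.98 and 105 in no RANKL cells (log2 −1.84 ± 0.10, limma adjusted p = 5.8e-06). Of 20 amino acid transporters 6 were lower and 4 higher. Slc7a7 was at 4.86 and 5.04 FPKM in RANKL + LEA against 24.8 and 25.8 in no RANKL cells (log2 −2.33 ± 0.11, limma adjusted p = 2.9e-06). Slc38a2, a carrier of glutamine and other neutral amino acids, was at 88.2 and 86.6 FPKM in RANKL + LEA against 26.6 and 27.1 in no RANKL cells (log2 1.70 ± 0.09, limma adjusted p = 7.6e-06). Of 12 genes of arginine, itaconate and polyamine metabolism 4 were higher and 1 lower. Ass1, argininosuccinate synthase, was at 62.3 and 70.3 FPKM in RANKL + LEA against 31.4 and 21.3 in no RANKL cells (log2 1.35 ± 0.18, limma adjusted p = 0.00066). Gatm, which starts creatine synthesis, was at 25.4 and 21.9 FPKM in RANKL + LEA against 73.4 and 83.2 in no RANKL cells (log2 −1.73 ± 0.14, limma adjusted p = 5.7e-05).

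**Figure D4:**
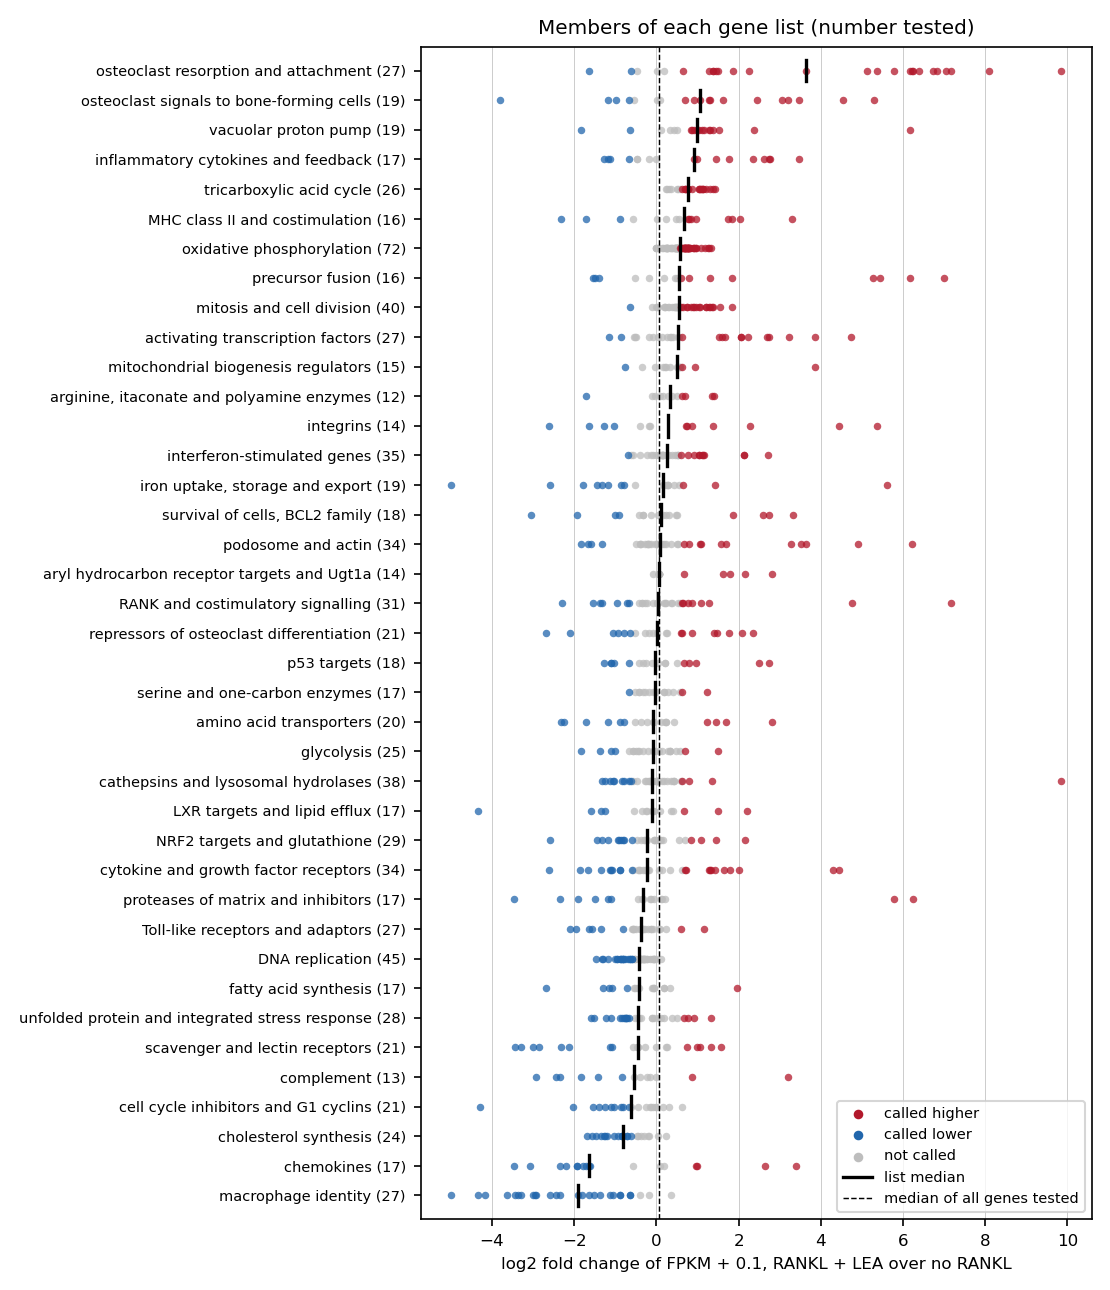
Log2 fold change of FPKM + 0.1, RANKL + LEA over no RANKL, of the tested members (points) of each gene list with 12 or more tested. Bars mark list medians and the dashed line the median of all genes tested (0.06), and red points were called higher, blue lower and grey not called. Lists run by median, with resorption (3.64) highest and macrophage identity (−1.91) lowest. The largest values, such as that of Ctsk, come from genes near 0 in no RANKL cells and depend on the 0.1 added.

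Outside the lists, the genes with the largest rises included others near 0 without RANKL. Mt3, a metallothionein, was at 39.8 and 35.98 FPKM in RANKL + LEA, 64.2 and 46.97 in RANKL and 0 and 0 in no RANKL cells. Cd200, a surface ligand that restrains myeloid cells, was at 18.8 and 16.03 FPKM in RANKL + LEA, 38.7 and 32.6 in RANKL and 0.009 and 0 in no RANKL cells. Both were thus at or near 0 in no RANKL cells and clearly present in both other groups. Akap6, an anchor of protein kinase A, was at 13.9 and 17.9 FPKM in RANKL + LEA against 0.022 and 0.010 in no RANKL cells. Vcan, the matrix proteoglycan versican, was at 27.4 and 37.3 FPKM in RANKL + LEA, 15.4 and 18.1 in RANKL and 0.119 and 0.213 in no RANKL cells (limma adjusted p = 3.8e-07). Htra1, a secreted serine protease, was at 13.2 and 13.5 FPKM in RANKL + LEA, 15.6 and 12.3 in RANKL and 0.062 and 0.163 in no RANKL cells (limma adjusted p = 1.2e-06). For Vcan the RANKL + LEA libraries were the highest of all 6. The largest falls began with the organic anion transporter Slco2b1, at 0.010 and 0.092 FPKM in RANKL + LEA against 9.73 and 11.8 in no RANKL cells (limma adjusted p = 5.9e-06). The clotting factor subunit F13a1 was at 0.206 and 0.183 FPKM in RANKL + LEA against 8.62 and 9.36 in no RANKL cells. Fcrls, an Fc receptor-like protein, was at 0.982 and 0.682 FPKM in RANKL + LEA against 26.8 and 29.8 in no RANKL cells. All 3 were thus below 1 FPKM in RANKL + LEA cells. Hpgd, which degrades prostaglandins, was at 6.22 and 3.69 FPKM in RANKL + LEA against 64.4 and 83.6 in no RANKL cells (log2 −3.91 ± 0.23, limma adjusted p = 1e-05). Ch25h, cholesterol 25-hydroxylase, was at 0.186 and 0.359 FPKM in RANKL + LEA against 5.19 and 5.96 in no RANKL cells. Ctla2a, an inhibitor of cysteine proteases, was at 0.661 and 0.926 FPKM in RANKL + LEA against 11.3 and 12.7 in no RANKL cells.

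Some genes stood above or below both other groups. Against no RANKL and against RANKL alike, 82 genes were higher (0.689% of those tested) and 12 were lower (0.101%). These counts rest on each library of the RANKL + LEA against RANKL test. Leaving out RANKL + LEA replicate 1 gave 21 higher and 6 lower, and leaving out RANKL + LEA replicate 2 gave 41 and 11. Leaving out RANKL replicate 1 gave 20 and 0, and RANKL replicate 2 gave 19 and 2. With no filter the counts were 39 and 6, with a pseudocount of 1 they were 64 and 5, after median centring 67 and 17 and after quantile normalization 61 and 22. With only genes at 2 FPKM or more they were 78 and 7, without no RANKL replicate 1 they were 71 and 8 and without a trend in the spread 80 and 8. Ly6a, the surface protein Sca-1, was at 106 and 76.4 FPKM in RANKL + LEA, 12.4 and 10.7 in RANKL and 18.2 and 17.5 in no RANKL cells (log2 2.33 ± 0.16, limma adjusted p = 2.3e-05). Against RANKL its log2 change was 2.96 (limma adjusted p = 0.00044). Gpr141, an orphan receptor, was at 6.300 and 5.698 FPKM in RANKL + LEA, 1.01 and 0.894 in RANKL and 0.648 and 0.526 in no RANKL cells (limma adjusted p = 8.4e-06 against no RANKL and 0.00069 against RANKL). For Nqo1, given above, the log2 change against RANKL was 2.23 (limma adjusted p = 0.00064). Gpnmb, a membrane glycoprotein of macrophages and osteoclasts, was at 813 and 729.6 FPKM in RANKL + LEA, 309.5 and 278 in RANKL and 194 and 215 in no RANKL cells (log2 1.92 ± 0.11, limma adjusted p = 1e-05). Its log2 change against RANKL was 1.39 (limma adjusted p = 0.0012). Tgfbi, a matrix protein, was at 103 and 103 FPKM in RANKL + LEA, 42.7 and 42.3 in RANKL and 38.7 and 38.6 in no RANKL cells (log2 1.41 ± 0.09, limma adjusted p = 1.6e-05). Against RANKL it was higher by 1.27 on the log2 scale (limma adjusted p = 0.00069). Alox5, which starts leukotriene synthesis, was at 6.52 and 6.16 FPKM in RANKL + LEA, 2.16 and 1.94 in RANKL and 1.23 and 1.304 in no RANKL cells (limma adjusted p = 1.4e-05 and, against RANKL, 0.0015). Acod1, which makes itaconate, was at 4.15 and 3.44 FPKM in RANKL + LEA, 0.706 and 0.459 in RANKL and 1.37 and 1.38 in no RANKL cells (limma adjusted p = 0.0018 and, against RANKL, 0.0014). In each of these 7 genes, picked as called higher than both groups, both RANKL + LEA libraries were above the other 4. Serinc2 was at 7.88 and 7.46 FPKM in RANKL + LEA, 3.08 and 2.78 in RANKL and 0.022 and 0.111 in no RANKL cells. Its call against RANKL (limma adjusted p = 0.023) was lost without any 1 of the 4 libraries of that test. Ly6a and Acod1 were higher than no RANKL in RANKL + LEA cells and lower in RANKL cells, as calls in both, a pattern of opposite calls found in 5 genes (0.042%).

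Below both other groups were genes of low level. Jag1, a Notch ligand, was at 2.12 and 1.88 FPKM in RANKL + LEA, 4.67 and 3.15 in RANKL and 4.82 and 4.68 in no RANKL cells. Slamf9, a receptor of the SLAM family, was at 2.61 and 2.67 FPKM in RANKL + LEA, 4.75 and 4.92 in RANKL and 4.16 and 4.49 in no RANKL cells. Tubb2b, a β-tubulin, was at 1.17 and 0.958 FPKM in RANKL + LEA, 2.08 and 1.68 in RANKL and 3.73 and 3.78 in no RANKL cells. The calls of all 3 against RANKL (limma adjusted p = 0.031, 0.0092 and 0.039) were lost without RANKL replicate 1, and that of Slamf9 against no RANKL was lost with a pseudocount of 1.

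Other genes that RANKL alone moved stayed near the no RANKL level when LEA was present. For 4241 genes (35.6%) the 95% interval of RANKL + LEA against no RANKL lay within 1.5-fold either way. Of these, 149 (1.25% of genes tested) were lower and 57 (0.479%) were higher with RANKL alone against no RANKL. These counts did not require a call between RANKL + LEA and RANKL. A gene just past 1.5-fold with RANKL alone and just short of it with LEA can thus be among them. Npy, a neuropeptide, was at 22.6 and 22.2 FPKM in RANKL + LEA, 5.11 and 5.29 in RANKL and 22.2 and 22.2 in no RANKL cells. Its log2 change for RANKL + LEA against no RANKL was 0.02 (95% interval −0.21 to 0.24). Il7r, the interleukin-7 receptor, was at 6.15 and 5.99 FPKM in RANKL + LEA, 1.03 and 1.19 in RANKL and 6.58 and 7.14 in no RANKL cells (95% interval −0.48 to 0.14). Mmp8, a collagenase, was at 3.19 and 2.88 FPKM in RANKL + LEA, 0.335 and 0.327 in RANKL and 2.52 and 3.15 in no RANKL cells (95% interval −0.32 to 0.52). Clec4e, the lectin Mincle, was at 24.9 and 19.7 FPKM in RANKL + LEA, 5.798 and 5.32 in RANKL and 20.9 and 24.2 in no RANKL cells (95% interval −0.36 to 0.31). In these 4 genes, picked for such a pattern, both RANKL libraries were below all others. Stap1, a signalling adaptor, was at 29.96 and 26.4 FPKM in RANKL + LEA, 12.7 and 11.8 in RANKL and 30.6 and 33.1 in no RANKL cells (95% interval −0.43 to 0.08), and Rcbtb2 and the purine receptor P2ry13 had the same pattern. On the other side, Card14, a scaffold of NF-κB signalling, was at 2.81 and 3.004 FPKM in RANKL + LEA, 6.32 and 6.36 in RANKL and 2.42 and 2.86 in no RANKL cells (95% interval −0.18 to 0.46). Arsb, a lysosomal sulfatase, was at 67.05 and 63.1 FPKM in RANKL + LEA, 125 and 104 in RANKL and 50.4 and 57.95 in no RANKL cells (95% interval −0.02 to 0.56). St3gal2, a sialyltransferase, was at 8.92 and 10.3 FPKM in RANKL + LEA, 15.5 and 13.97 in RANKL and 8.05 and 7.64 in no RANKL cells (95% interval 0.00 to 0.56). In these 3, picked likewise, both RANKL libraries were above all others, and the myosin Myo1e, Ermp1, Pnpla7, Zfp787 and Inpp5a had the same pattern.

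**Figure D5:**
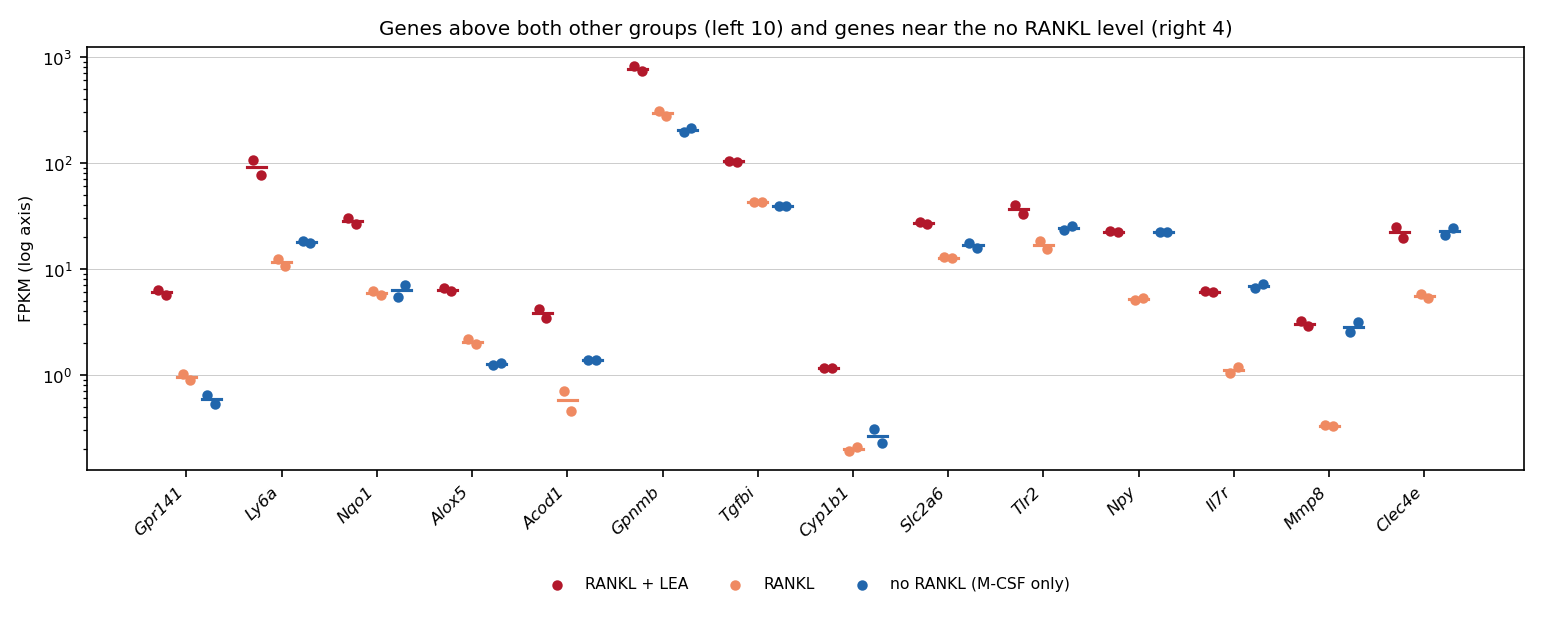
FPKM (log axis) of 14 genes in each of the 2 RANKL + LEA (red), 2 RANKL (orange) and 2 no RANKL (blue) libraries, with a line at each group mean. In the left 10 the RANKL + LEA libraries are above the other 4, as for Ly6a at 106 and 76.4 FPKM. In the right 4 they lie near the no RANKL libraries and above RANKL, as for Npy at 22.6 and 22.2 FPKM with RANKL + LEA. The genes were picked for these patterns.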

How the data were processed

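The authors aligned paired-end reads (SMARTer Stranded libraries, Illumina HiSeq) to mm10 with HISAT2. Their deposited table gives FPKM per gene, made by HOMER over exons on both strands, so a gene and its antisense partner cannot be told apart. No source used here names tool versions, and labels and methods differ on strain and RNA kit. The deposited columns of the authors' own comparisons were not used. In all 6 libraries the low FPKM values examined were whole multiples of 1 read (100% within 0.1 read), which gave the depth. Reads of 410 genes present in more than 1 copy may be shared, and 26 symbols turned into dates were named by accession.

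Genes that reached 0.5 FPKM in 2 or more libraries were fitted as log2(FPKM + 0.1) with limma 3.58.1 (R 4.3.3). The fit had a trended spread shared by all 6 libraries (3 residual degrees of freedom), and p-values were adjusted over the 11905 genes of each comparison. On simulated data for RANKL + LEA against no RANKL over these 11905 genes, recovery needed only an adjusted p of limma below 0.05, with no fold limit. It was 19 of 50 genes for a log2 change of 0.585, 47 of 50 for 1, 49 of 50 for 1.5 and 50 of 50 for 2. By the same limit 17 of 11705 unchanged genes passed. The changed genes were drawn from those with a mean log2(FPKM + 0.1) above 0 in no RANKL cells. They were far fewer than the genes called in the data, so recovery under the calls used here was not tested. Named were the genes of largest change, those highest from near 0, up to 4 of smallest p per list with those against its direction, those above or below both other groups, those near no RANKL that RANKL moved, and those the study names. Members and lists were chosen with earlier results of these data known. Genes named beyond that rule, such as Adgre1, Lyz2, Cd68 and Calcr, were chosen after their values were seen, and a few genes that the rule names are not reported here. Alternatives covered the pseudocount, filter, scaling, trend, fold limit, libraries and replicate block.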

Additional observations from a re-analysis of the deposited data

How the results depend on the processing

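Against no RANKL, the counts for RANKL + LEA were between 1475 (pseudocount 1) and 1959 (voom on recovered reads) higher and between 1139 and 1678 lower under the alternatives other than the fold limit, and between 1561 and 1952 higher and 1150 and 1389 lower without 1 library. With a fold limit of 2 they were 972 and 690, and 248 genes were called for RANKL + LEA against RANKL and 2390 for RANKL against no RANKL. RANKL + LEA against RANKL, with 751 calls, gave 291 with no filter. It gave 209 and 350 without replicate 1 or 2 of RANKL + LEA, 144 and 141 without replicate 1 or 2 of RANKL, and up to 669 without a no RANKL library, so it rests on each of its own 4 libraries. Of 3696 log2 changes of named genes against no RANKL, 3633 kept direction and call, 51 lost the call and 12 turned in sign. Of the 195 called, 16 lost the call without some 1 library and 3 under another scaling. In refits that changed only the filter, trend, block or RANKL libraries, or kept only the 4 libraries compared, the log2 change could not move. There only the call was open to change. The turned ones, all in other refits, were uncalled and near 0. After median centring they were Gsn at −0.05628 and Npy at −0.06402, and after quantile normalization Mmp8 at −0.001714 and Npy at −0.01914. Without 1 library Gsn ranged from −0.05792 to 0.1044, Mmp8 from −0.05428 to 0.2531, Clec4e from −0.1917 to 0.148, P2ry13 from −0.2076 to 0.1576 and Rela from −0.1798 to 0.004717.

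The labels number the replicates alike in each group. With the replicate number as a block, 1840 genes were higher and 1393 lower, and of the named genes Fosl1 was not called. The deviations of equal numbers correlated at −0.25 between RANKL + LEA and no RANKL, 0.12 between RANKL + LEA and RANKL and −0.08 between RANKL and no RANKL. These values had no common sign, and they cannot show whether equal numbers shared a culture or mouse. A crossed replicate block, chosen after seeing the data, gave 1910 higher and 1454 lower.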
